A study of Mus musculus with 8 samples.

Results

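The regenerating-family (Reg) lectins Reg1, Reg3a, Reg3b, Reg3g and Reg4 and the resistin-like gene Retnlb were examined in the crypts of Mex3a knockout mice. They were taken by gene symbol and make up 6 of the 55114 genes in the deposited table, and all 6 passed the filter on low counts that left 16109 genes for testing. Crypts, the pockets of intestinal epithelium that hold the stem cells, were detached by EDTA from intestines of 4 mice with a constitutive, whole-body Mex3a knockout (KO), in which exon 1 and part of exon 2 were deleted, and of 4 littermate controls (Ctrl). All 8 mice were C57BL/6 and 8 weeks old, no other treatment was listed, and total RNA of the crypts was sequenced. The segment of intestine was not given in the labels or methods.

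Reg proteins are small secreted C-type lectins of the gut and pancreas. Reg3b and Reg3g are antibacterial lectins that keep bacteria away from the epithelial surface, and their transcription is induced by interleukin-22 through STAT3 and by bacterial sensing through MyD88. Retnlb encodes RELM-beta, a cysteine-rich protein that goblet cells secrete and that the type 2 cytokines IL-4 and IL-13 induce. Mex3a encodes an RNA-binding protein of the MEX3 family.

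Reg1, Reg3a, Reg3b and Reg3g lie within 98.2 kb of chromosome 6 (78370657 to 78468872, with the untested relative Reg2 and the tested relative Reg3d, in the deposited coordinates, which are those of GRCm38). To show sequence that these 4 genes share near their start sites, the stretch that opens with ATAAA and runs on through a second shared word, CCTGACA, is given from the RefSeq promoters of GRCm38.p6. Each runs 5′ to 3′ on the gene's own strand, and capitals mark the 2 words.
Reg3b, chr6:78370857-78370886, plus strand: ATAAAaacacagtcatctctgtCCTGACAc
Reg3g, chr6:78468871-78468900, minus strand: ATAAAaacagtcatctctgtCCTGACAcac
Reg1, chr6:78425954-78425983, plus strand: ATAAAaggcctaccttttcctttCCTGACA
Reg3a, chr6:78380730-78380758, plus strand: ATAAAgcagtcacctttgtCCTGACAaac

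Counted from the RefSeq start, the ATAAA began at position -28 in Reg3b, -26 in Reg3g and -29 in Reg1, and downstream of the start, at position 21, in Reg3a. An ATAAA beginning from 40 bases before to 30 bases after the start, on the gene's strand, was present in 7.59% of 32851 promoters. With CCTGACA within the 30 bases from it, it was present in 6 promoters (0.0183%), those of these 4 genes and of Gm30085 and Gm51598. The 2 words were chosen after the promoters had been read, so these shares are a description. Reg4, the member on chromosome 3, had no such ATAAA, and Retnlb was not among the promoters.

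The palindromic STAT word TTCNNNGAA, which reads the same on both strands, was present between 250 bases before and 50 after the start in 1 of the 5 members with a promoter, Reg3b, and in 8.3% of all promoters. It is shown in capitals because the Reg3 lectins are STAT3-induced genes.
Reg3b, chr6:78370746-78370775, plus strand: agcctgttctTTCTTGGAAactctttgagt

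The word began at position -129 from the RefSeq start. A match, or the lack of one in this window, is a description of the letters only.

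Mex3a itself was first examined as the check of the genotype. Its counts were 269, 236, 327 and 328 in the Ctrl mice (replicates 1 to 4) and 20, 28, 6 and 8 in the KO mice, and by edgeR's quasi-likelihood test it was the only gene past the adjusted threshold of 0.05 (log2 fold change -4.43, adjusted p = 0.0310). With the replicate number as a block, its log2 fold change was -4.51, its adjusted p in edgeR 0.126, and no gene passed the adjusted threshold. Without the block, that 1 gene is 0.00621% of those tested, against 1350 genes (8.38%) at an unadjusted p under 0.05, and DESeq2 placed 93 of 13903 genes (0.669%) under an adjusted 0.05. Between 20324184 and 24726221 reads were counted on genes in the Ctrl mice and between 23489180 and 30654105 in the KO mice. Replicates 1 and 2 of each genotype carried Y-chromosome transcripts and replicates 3 and 4 carried Xist, so each genotype held the same mix. The crypt origin was visible in the defining markers: the 12 Paneth cell markers summed to 9428 to 62360 CPM (library-size-scaled counts) and the 5 stem cell markers to 2955 to 4801 CPM, whereas the colon gene Hoxb13 had no count in any mouse.

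None of the 6 genes passed an adjusted p of 0.05. The mean levels of the 3 Reg3 lectins were higher in KO crypts (1.79 to 2.11 times the Ctrl mean), and those of Reg1, Reg4 and Retnlb were lower (0.687, 0.477 and 0.223 times). At an unadjusted p under 0.05, Reg3a and Reg3b were higher and Retnlb was lower, 3 of 6 genes beside the 8.38% of all genes tested (5.33% higher and 3.05% lower). With the replicate number as a block, which pairs same-numbered mice, Reg3g and Reg4 joined them, 5 of 6 beside 11.3% of all genes. The adjusted p of the 6 genes in the blocked fit was 0.302 to 0.599. DESeq2 placed the same 3 genes as edgeR under an unadjusted 0.05, beside 9.09% of all genes. Retnlb was the 1 gene of 6 whose genotypes did not overlap, beside 4.05% of all genes (1.87% with every KO mouse below every Ctrl mouse and 2.17% with every KO mouse above). An absolute log2 fold change of at least 1 was seen for Reg3b, Reg4 and Retnlb, and for 2.77% of all genes. Within the mice with Y transcripts and within those with Xist (2 mice against 2 each, not tested), the log2 difference was 1.34 and 0.78 for Reg3b, 1.15 and 0.62 for Reg3g, -1.13 and -0.04 for Reg1, and -1.92 and -0.38 for Reg4. Because crypts are a mixture of cells, fewer cells of a type and less RNA per cell cannot be told apart in these values.

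**Figure D1:**
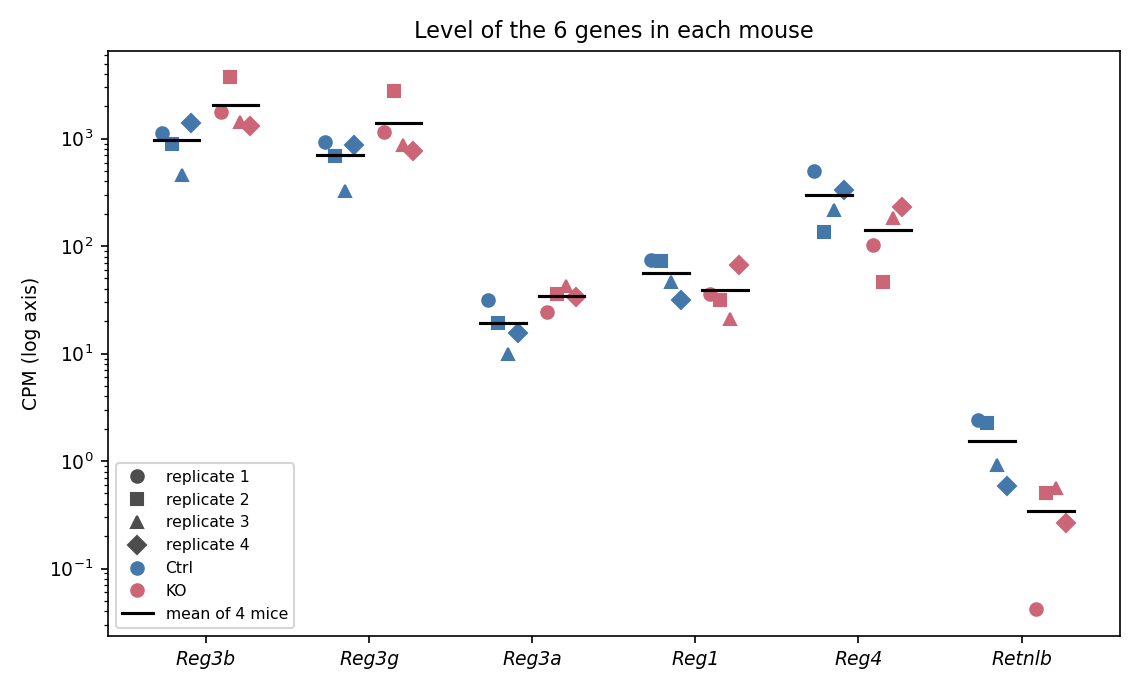
Level of each gene in each mouse in CPM on a log axis, with Ctrl in blue, KO in red, the marker shape giving the replicate number and the black line the mean of 4 mice. KO replicate 2 is the highest mouse for Reg3b (3721 CPM) and Reg3g (2764 CPM) and the lowest for Reg4 (46.3 CPM), and the 4 KO mice lie below the 4 Ctrl mice for Retnlb.

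Reg3b (ENSMUSG00000071356; chromosome 6, 78370657 to 78373466, plus strand) was the most abundant of the 6. It had 1136, 898, 455 and 1403 CPM in Ctrl replicates 1 to 4 and 1765, 3721, 1422 and 1317 CPM in KO replicates 1 to 4, a mean of 973 ± 402 against 2057 ± 1126 CPM (SD, n = 4 mice each). KO replicates 1 to 3 lay above the highest Ctrl mouse, and KO replicate 4 lay below it. The log2 fold change was 1.08 (SE 0.40, unadjusted p = 0.0248, adjusted p = 0.545 by edgeR with Benjamini-Hochberg adjustment; exact permutation p = 0.0571, two-sided). Without KO replicate 2 the log2 fold change was 0.63 and the unadjusted p in edgeR 0.0848. The unadjusted p was also above 0.05 without Ctrl replicate 2 (0.0553) and without Ctrl replicate 3 (0.0511).

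Reg3g (ENSMUSG00000030017; chromosome 6, 78466269 to 78468872, minus strand), the lectin that binds the peptidoglycan of Gram-positive bacteria, stood next in counts. It had 938, 689, 327 and 879 CPM in Ctrl replicates 1 to 4 and 1150, 2764, 876 and 776 CPM in KO replicates 1 to 4. KO replicates 1 and 2 were above every Ctrl mouse, and KO replicates 3 and 4 fell within the Ctrl range. The means were 708 ± 275 and 1391 ± 928 CPM (SD, n = 4 mice each). This gave a log2 fold change of 0.97 (SE 0.45, unadjusted p = 0.0556, adjusted p = 0.604 by edgeR; exact permutation p = 0.171). In the fit with the replicate block the log2 fold change was 0.88 and the unadjusted p 0.0410 by edgeR. Without KO replicate 2 the log2 fold change was 0.40, the smallest of the alternatives for Reg3g.

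Reg3a (ENSMUSG00000079516; chromosome 6, 78380709 to 78383827, plus strand), the third lectin of the subfamily, was far less abundant. It had 31.6, 19.3, 9.96 and 15.6 CPM in Ctrl replicates 1 to 4 and 24.4, 35.7, 43.0 and 34.0 CPM in KO replicates 1 to 4. KO replicates 2 to 4 were above every Ctrl mouse, whereas KO replicate 1 was below Ctrl replicate 1. The means were 19.1 ± 9.17 and 34.2 ± 7.64 CPM (SD, n = 4 mice each), and the log2 fold change was 0.84 (SE 0.31, unadjusted p = 0.0247, adjusted p = 0.545 by edgeR; exact permutation p = 0.0571). The unadjusted p was above 0.05 when Ctrl replicate 4 (0.0608) or KO replicate 3 (0.0650) was left out. The log2 difference was 0.26 between the mice with Y transcripts and 1.61 between those with Xist, each from 2 mice against 2 and not tested.

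Reg3b and Reg3g varied together across the mice. Pearson's r of their log2 CPM was 0.979 over 8 mice (exact permutation p = 0.00119, adjusted p = 0.0179 over 15 pairs of members) and Spearman's rho was 0.833 (exact permutation p = 0.0154, adjusted p = 0.231). Without the mice farthest from the median of Reg3b, Ctrl replicate 3 and KO replicate 2, r was 0.811, and with the genotype means removed it was 0.981. No other of the 15 pairs passed an adjusted p of 0.05, the next lowest being 0.288. Reg3b had 1.21 to 1.60 times the counts of Reg3g in the Ctrl mice and 1.35 to 1.70 times in the KO mice. The log2 ratio of Reg3g to Reg3b was -0.45 ± 0.17 in Ctrl and -0.63 ± 0.15 in KO (SD, n = 4 mice each), and the ranges overlapped (exact permutation p = 0.2). The ratio was lower in the KO mouse of all 4 same-numbered pairs. Their coding sequences were 76.4% identical, yet each of the 50-base words of either transcript occurred in no annotated transcript of another gene (100%), as was the case for Reg3a, Reg4 and Retnlb, against 96.3% for Reg1.

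**Figure D2:**
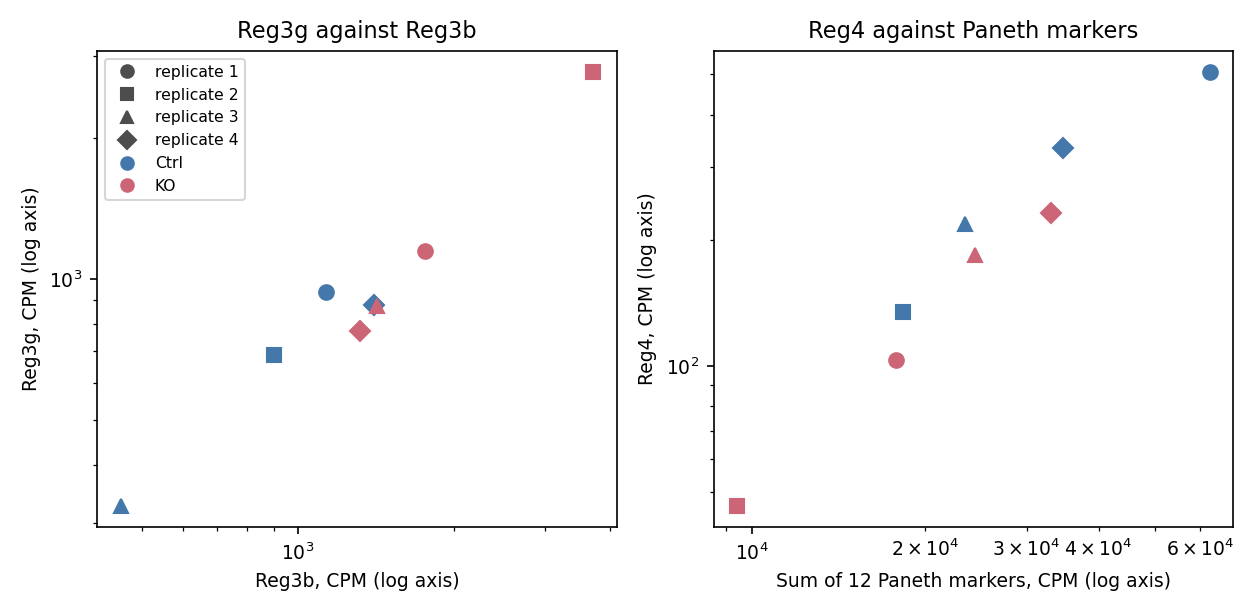
Left, Reg3g against Reg3b in each mouse, in CPM on log axes (r = 0.979 on log2 CPM); right, Reg4 against the summed level of 12 Paneth cell markers, in CPM on log axes (r = 0.975). Colour gives the genotype and marker shape the replicate number. In both plots the levels rise together, and in the right plot each KO mouse has a lower ratio of Reg4 to the Paneth sum than its same-numbered control (0.664 to 0.809 times).

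Reg1 (ENSMUSG00000059654; chromosome 6, 78422711 to 78428667, plus strand), known from the pancreas as lithostathine, had a lower mean in KO. It had 75.0, 72.2, 46.6 and 31.5 CPM in Ctrl replicates 1 to 4 and 35.6, 31.5, 21.0 and 66.6 CPM in KO replicates 1 to 4. KO replicates 2 and 3 were below every Ctrl mouse, replicate 2 only just, while KO replicate 4 was 2.11 times its same-numbered control. The means were 56.4 ± 20.9 and 38.7 ± 19.6 CPM (SD, n = 4 mice each), and the log2 fold change of -0.54 (SE 0.37) did not pass the test (unadjusted p = 0.174, adjusted p = 0.728 by edgeR; exact permutation p = 0.229). Leaving out KO replicate 4 gave -0.94 and an unadjusted p of 0.0159 in edgeR. Since pancreatic acinar cells also express Reg1, their markers were counted: 9 of the 11 listed had at most 14 counts in any mouse, and the 2 tested, Clps and Cela1, had log2 fold changes of -0.67 and -0.40 with adjusted p of 0.715 and 0.696 in edgeR. The summed acinar markers were 132 to 371 CPM in Ctrl and 61.0 to 236 CPM in KO, nearly all of it Clps, and their part in the Reg1 values was not tested.

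Reg4 (ENSMUSG00000027876; chromosome 3, 98222156 to 98236748, plus strand), a member of the family made by secretory epithelial cells, lies 9.68 Mb from Mex3a on the same chromosome. It had 505, 135, 218 and 332 CPM in Ctrl replicates 1 to 4 and 103, 46.3, 185 and 233 CPM in KO replicates 1 to 4. Each KO mouse was below the Ctrl mouse of the same number (0.205, 0.343, 0.845 and 0.702 times), but KO replicates 3 and 4 lay within the Ctrl range. The means were 298 ± 160 and 142 ± 83.2 CPM (SD, n = 4 mice each). This gave a log2 fold change of -1.07 (SE 0.51, unadjusted p = 0.0651, adjusted p = 0.617 by edgeR; exact permutation p = 0.143). With the replicate block it was -1.14 (unadjusted p = 0.0110, adjusted p = 0.302 by edgeR). Without Ctrl replicate 1, the highest mouse, the log2 fold change was -0.69.

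The genes whose log2 CPM was most like that of Reg4 over the 8 mice, among 12381 compared, were the Paneth cell defensin Defa24 (r = 0.993), Syngr1 (0.988) and the defensin Defa30 (0.988). The 12 Paneth markers all had a negative log2 fold change (median -0.67, beside -0.02 for all genes tested), none at an unadjusted p under 0.05. Their sum was 62360, 18270, 23400 and 34620 CPM in Ctrl replicates 1 to 4 and 17820, 9428, 24440 and 33090 CPM in KO replicates 1 to 4, so Reg4 and the Paneth markers had their highest and lowest value in the same mice. Defensin genes are near-identical copies, and reads may be split among them.

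The members were therefore set against the sums of the Paneth, goblet and enterocyte markers, a comparison chosen after these likenesses had been seen. Pearson's r of Reg4 with the Paneth sum was 0.975 and Spearman's rho 0.976 over the 8 mice. These are descriptions with no p, since Defa24 and Defa30, whose likeness to Reg4 led to the comparison, are part of the sum. The r was 0.925 without Ctrl replicate 1 and KO replicate 2 and 0.980 with the genotype means removed. The r of the other members with the 3 sums, and of Reg4 with the goblet and enterocyte sums, was -0.607 to 0.502. As a share of the Paneth sum, Reg4 was 0.810%, 0.739%, 0.933% and 0.959% in Ctrl replicates 1 to 4 and 0.580%, 0.491%, 0.755% and 0.704% in KO replicates 1 to 4. The highest KO share was above the lowest Ctrl share only. Between same-numbered mice the KO share was 0.717, 0.664, 0.809 and 0.735 times the Ctrl share, lower in 4 of 4 pairs. The shares were also compared after these likenesses had been seen, so they too are descriptions with no p. The part of the Paneth markers in the Reg4 values was not tested.

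Retnlb (ENSMUSG00000022650; chromosome 16, 48816856 to 48818892, plus strand) was rare in every mouse. Its counts were 52, 48, 19 and 14 in the Ctrl mice and 1, 13, 13 and 8 in the KO mice, in the order of the replicate numbers. In CPM this was 2.40, 2.24, 0.928 and 0.585 in Ctrl and 0.0420, 0.504, 0.563 and 0.266 in KO, so that all KO mice were below all Ctrl mice by a narrow margin between Ctrl replicate 4 and KO replicate 3. The means were 1.54 ± 0.917 and 0.344 ± 0.239 CPM (SD, n = 4 mice each), and the log2 fold change was -2.15 (SE 0.64, unadjusted p = 0.00807, adjusted p = 0.518 by edgeR). The exact permutation p was 0.0286, the smallest that 4 mice against 4 allow. The log2 difference was -3.14 between the mice with Y transcripts and -0.79 between those with Xist (2 mice against 2, not tested). On the log2(FPKM + 1) scale, which shrinks low genes, the difference was -1.03.

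**Figure D3:**
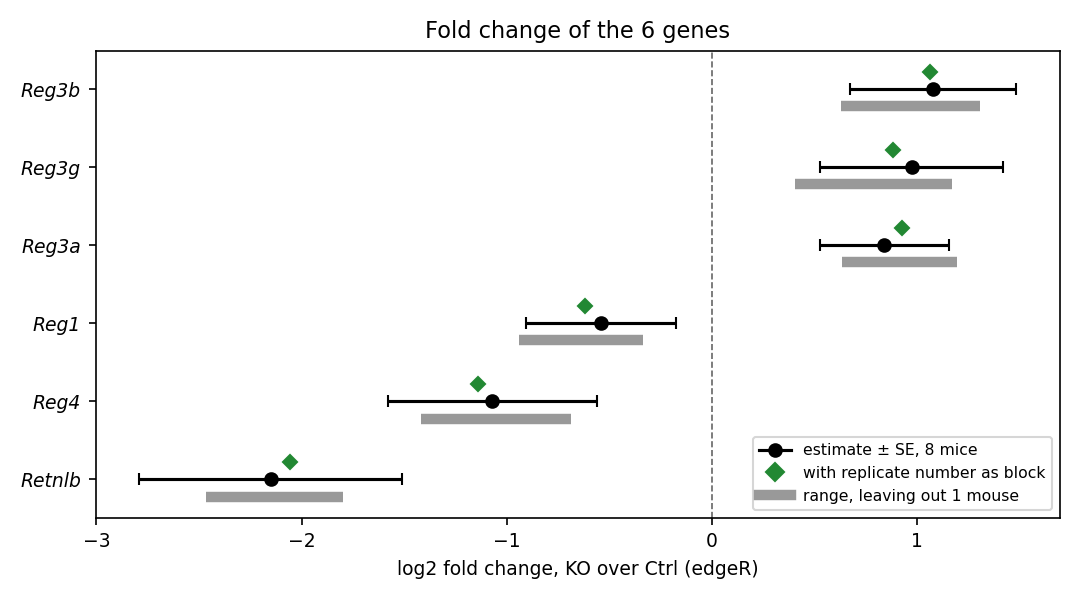
Log2 fold change of KO over Ctrl for the 6 genes from edgeR (black, ± SE), with the replicate number as a block (green) and as a range when 1 mouse is left out (grey). The 3 Reg3 lectins lie at 0.84 to 1.08 and Reg1, Reg4 and Retnlb at -0.54 to -2.15, and no grey range crosses 0.

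Levels were compared between genes per length, since counts grow with transcript length. In deposited FPKM (counts scaled to gene length and library size), Reg3b was highest in every mouse, at 398 to 1218 in Ctrl and 1150 to 3252 in KO, which placed it 31st to 107th of all genes in Ctrl and 5th to 35th in KO. These ranks rest on the deposited lengths, which for Reg3b is 1142 bases, 1.46 times its 783-base coding transcript. Reg4 stood above Reg3g in Ctrl replicates 1 and 3 and below it in the other mice. That order depended on the length used: the deposited length of Reg3g is 2114 bases, 2.74 times its 771-base coding transcript, and the annotation lists 1 retained-intron transcript of the gene. Per kilobase of the longest coding transcript, Reg3b, Reg3g and Reg4 kept this order in all 8 mice. Together the 6 genes took 0.107% to 0.264% of all counts in Ctrl and 0.238% to 0.693% in KO.

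The family relatives were at or near the detection limit. Reg2, Retn, Retnla and Retnlg had at most 5 counts in any mouse and were not tested. The counts of Reg3d were 125, 16, 4 and 11 in the Ctrl mice and 19, 56, 16 and 12 in the KO mice, with Ctrl replicate 1 far above the rest (log2 fold change -0.82, SE 0.95, adjusted p = 0.858 by edgeR), and its mean log2 CPM differed by 0.003 between the genotypes.

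The pathways that induce these genes were read from lists of their components, beside all genes tested, of which 46.1% had a positive log2 fold change and 8.38% an unadjusted p under 0.05 (5.33% higher and 3.05% lower). Of 11 tested genes of IL-22 and STAT3 signalling, 8 had a positive and 3 a negative log2 fold change (median 0.10). Of the 11, 1 was at an unadjusted p under 0.05, a share near the 8.38% of all genes. It was Il22ra1, the epithelial receptor chain for IL-22 (log2 fold change 0.59, SE 0.15, unadjusted p = 0.00375, adjusted p = 0.518 by edgeR). Its partner Il10rb had 0.22 and the shared receptor chain Il6st -0.22, with unadjusted p in edgeR of 0.151 and 0.0567. Il22 itself had no count in the Ctrl mice and 1, 2, 1 and 6 counts in KO replicates 1 to 4, too few to test.

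Of 9 tested genes known to respond to IL-22 and STAT3, 6 were on the positive side and none was at an unadjusted p under 0.05 (median 0.19). The mucin Muc1 had a log2 fold change of -2.09 and the nitric oxide synthase Nos2 one of 1.09, with unadjusted p in edgeR of 0.0548 and 0.0857. In TLR and MyD88 signalling, 9 of 15 tested genes were positive (median 0.06), and 1 of the 15, a share below the 8.38% of all genes, was at an unadjusted p under 0.05, the adaptor Ticam1 (log2 fold change 0.26, unadjusted p = 0.0411 by edgeR). Of 7 tested genes of IL-4 and IL-13 signalling, which induces Retnlb, 6 were positive and none was at an unadjusted p under 0.05 (median 0.25), the receptor chain Il4ra having 0.25. Il13 had no count in Ctrl and at most 1 in a KO mouse.

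Other secreted antimicrobial proteins lay on both sides of 0. Of 12 tested, 4 had a positive and 8 a negative log2 fold change (median -0.16), and 3 were at an unadjusted p under 0.05, all positive, beside 5.33% of all genes. These were the goblet cell lectin Zg16 (log2 fold change 0.65, unadjusted p = 0.00569) and the small proline-rich proteins Sprr2a1 (1.38, 0.0419) and Sprr2a2 (1.82, 0.0438), all by edgeR with adjusted p of 0.518 to 0.584. The Sprr2a genes are near-identical copies, so their separate counts are uncertain. Sprr2a3, another copy on the list, had -0.15 (unadjusted p = 0.797 by edgeR). Pla2g2a, the Paneth cell phospholipase, had -2.46 with an unadjusted p of 0.0869.

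**Figure D4:**
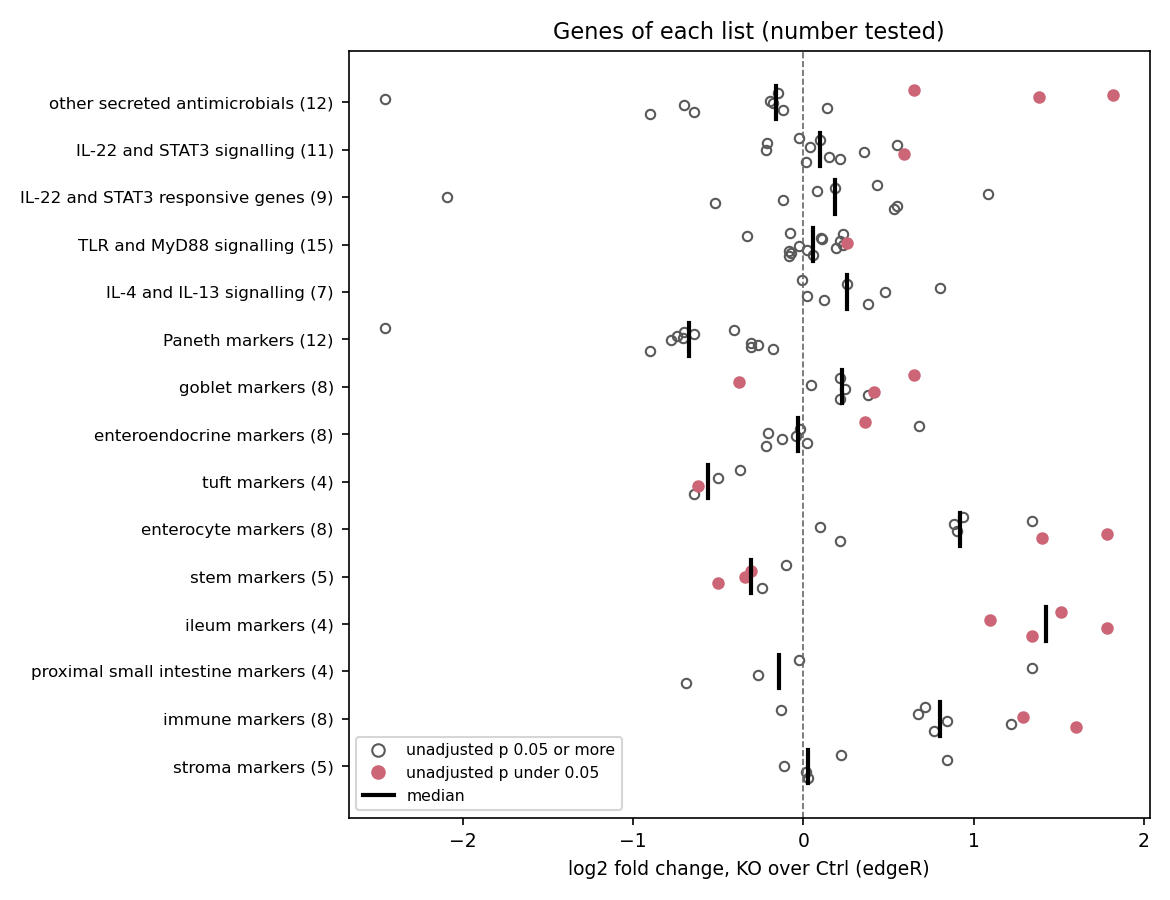
Log2 fold change of KO over Ctrl for each tested gene of the lists with at least 4 tested genes, with filled red points at an unadjusted p under 0.05 and a bar at the median. The ileum and enterocyte markers lie to the right (medians 1.43 and 0.92) and the Paneth markers to the left (median -0.67), while the signalling lists centre near 0.

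Markers of cell types and gut segments also differed in mean level between the genotypes. Their counts stand beside 46.1% of all genes with a positive log2 fold change, and 5.33% higher and 3.05% lower at an unadjusted p under 0.05. The 4 ileum markers, genes of bile acid uptake and export, all had a positive log2 fold change at an unadjusted p under 0.05 (median 1.43), and summed to 81.4 to 412 CPM in Ctrl and 435 to 897 CPM in KO. All 8 enterocyte markers were positive, with Apoa1 (1.78) and Anpep (1.40) at an unadjusted p under 0.05, and summed to 1353 to 3963 CPM in Ctrl and 2289 to 9603 CPM in KO. Of the 8 goblet markers, 7 were positive, and their sum was 5058 to 6859 CPM in Ctrl and 6039 to 8669 CPM in KO. Zg16 (0.65) and Fcgbp (0.41) were higher at an unadjusted p under 0.05, and Spink4 (-0.38), like the goblet product Retnlb, was lower. The 5 stem cell markers were all negative (median -0.31), 3 of them at an unadjusted p under 0.05. Of 8 tested immune markers 7 were positive (median 0.81), with Cd3e (1.60) and Cd8a (1.29) at an unadjusted p under 0.05. Of the smaller classes, all 4 tuft markers were negative, 3 of 8 enteroendocrine markers were positive with Sct at an unadjusted p under 0.05, and the stroma, colon and proximal small intestine markers had none. No gene of these lists passed an adjusted p of 0.05, and the part of these markers in the values of the 6 genes was not tested.

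The genes most like the other members in log2 CPM over 8 mice were found in the same way. They included Tgds (r = 0.970), AW209491 (0.911) and Dnajc24 (0.906) for Reg1, and Sat1 (0.960), AA986860 (0.954) and Ctns (0.943) for Reg3a. For Reg3b they included Reg3g (0.979) and Gm15331 (0.952), and for Reg3g they were Reg3b (0.979), Gm15331 (0.977) and Nipal2 (0.926). For Retnlb they were Zfp93 (0.957), Gm15462 (0.941) and Zfp157 (0.940), among 12382 genes compared.

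Because MEX3A binds RNA, the 3′UTRs of the longest coding transcripts (GENCODE M21) were searched on the transcript strand for its recognition element. The element has an upstream and a downstream word with 0 to 8 bases between them. It was found in 2 of the 6 genes, shown here with its words in capitals and any bases between them in lower case.
Reg1, chr6:78428483-78428493, exon 7, bases 17 to 27 of the 3′UTR: ATAGtcaTATA
Reg4, chr3:98236538-98236545, exon 6, bases 173 to 180 of the 3′UTR: AGAGTTTA

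The element was present in 74.3% of 12989 tested genes with a 3′UTR and in 36.1% of the 1952 whose 3′UTR was 137 to 383 bases long, the range of the 6 genes. Both genes that hold it had a negative log2 fold change (-0.54 and -1.07), and Retnlb, which had none, was negative too (-2.15). A match in 2 of 6 genes is near the 36.1% of that length range, and binding of MEX3A was not tested.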

How the data were processed

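For each of the 8 mice the authors deposited unnormalized read counts by gene, and FPKM values of the same genes, which are these counts divided by gene length and by 1 denominator per mouse. The submitters' processing notes name HISAT2 2.0.5, featureCounts 1.5.0-p3 and CASAVA; the strand setting and the treatment of multiply mapped reads are not given in the sources used here. The authors' own group means, fold changes and p-values were not used. Rows without a gene name held 0.232% of reads.

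Counts were compared with edgeR 4.0.16 in R 4.3.3 (filterByExpr with a minimum count of 10, TMM, quasi-likelihood test, genotype as the only term, all 8 mice, Benjamini-Hochberg adjustment over 16109 genes, threshold 0.05). CPM used TMM-scaled library sizes, and log2 CPM a prior count of 2. Single genes and the ratio of Reg3g to Reg3b were also tested by two-sided exact permutation over the 70 assignments of the mice. DESeq2 1.42.0, limma 3.58.1 on log2(FPKM + 1) and log2(FPKM + 0.1), other scalings and filters, the replicate block, the Xist/Y group and leaving out each mouse were the alternatives. The fitting scripts were tested on simulated data. Figures were drawn with matplotlib 3.10.9.

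The genes named were the 6 members, 5 relatives, the 3 genes most like each member among those whose log2 CPM averaged 1 or more, and up to 4 tested genes of each list with the lowest unadjusted p; a few of these are not reported here. The untested genes Il22, Il13 and Hoxb13, the tested gene Sprr2a3, and Gm30085 and Gm51598, fall outside this rule and were chosen after their values were seen. Members and lists were chosen with earlier results of these data known.

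Same-numbered mice deviated together from their genotype means (r = 0.129, 0.501, 0.141 and 0.294 over all genes; 0.0873, 0.481, 0.0921 and 0.252 over autosomal genes). Mice were paired by number on this basis, in part because same-numbered mice share a sex; nothing in the labels ties a number to a litter. Libraries of 1 genotype differed by more than sampling noise in every pair (chi-square divided by its degrees of freedom, 23.4 to 86.3). Genes with few counts, such as Retnlb, carry a large counting error.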

Additional observations from a re-analysis of the deposited data

How the results depend on the processing

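Reg1, Reg3a, Reg3b, Reg3g and Reg4 kept their direction in all 19 alternatives, and Retnlb in the 18 that could be run, as it left the test when 10 counts were required in every mouse. None passed an adjusted p of 0.05 in any alternative, and DESeq2 gave no adjusted p for Retnlb. When 1 mouse was left out, the log2 fold change ran from -0.94 to -0.34 for Reg1, 0.63 to 1.19 for Reg3a, 0.63 to 1.31 for Reg3b, 0.40 to 1.17 for Reg3g, -1.42 to -0.69 for Reg4 and -2.47 to -1.80 for Retnlb. The log2 ratio of Reg3g to Reg3b stayed between -0.25 and -0.12, and sign flips within same-numbered mice, added after seeing the data, gave an exact p of 0.125, the smallest that 4 pairs allow, so that this test could not pass 0.05.

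The number of genes under an adjusted p of 0.05 was 1 in the edgeR test, 93 with DESeq2, 2 without the filter, 0 with at least 10 counts in every mouse, 0 with the replicate block (where Mex3a had an adjusted p of 0.126), 4 with a term for Xist or Y transcripts, 3 with limma on log2(FPKM + 1) without a filter, and 0 to 4 when a mouse was left out; the cause was not tested. The replicate block changed no call but that of Mex3a at the adjusted threshold, and moved the genes at an unadjusted p under 0.05 from 1350 to 1815. Leaving out a mouse gave 846 (without KO replicate 3) to 2133 (without KO replicate 1). Of the 6 members, 3 were at an unadjusted p under 0.05 in edgeR (8.38% of all genes) and in DESeq2 (9.09%), and 5 without the filter (6.43%), with the block (11.3%) and with the Xist/Y group (11.3%). Leaving out a mouse gave 2 to 6 (5.16% to 13.0% of all genes), with 6 reached without KO replicate 4 (6.16%).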
